A study of Homo sapiens with 6 samples.

Results

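CD46, CD55 and CD59 are the membrane proteins with which human cells protect themselves from their own complement. Their transcripts were followed on oligonucleotide arrays of the T47D line after inhibition of PI3 kinase. Every probe set that the platform annotation assigns to only 1 of the 3 genes was taken, by current symbol through the Entrez identifier. This gave 3 of the 19775 genes measured, with 11 of the 54613 probe sets that are not manufacturer's controls: 3 for CD55, 3 for CD46 and 5 for CD59. No probe set named 1 of these genes together with another. The family was chosen by the difference of CD55 between treated and control arrays, which was already known. The differences of all 11 probe sets are therefore given as a description, with no p-value, and nothing is read from how many of them passed the fit.

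T47D is a luminal human breast cancer cell line, long established in culture. The treated group comprised 3 arrays from T47D cells given GDC-0941, an inhibitor of all class I PI3 kinases, for 6 hours. The labels write its dose as 1 mM, a unit that is uncertain because a micro sign may have been lost. The other group comprised 3 arrays from T47D cells with no agent, and whether the solvent was added to them is not stated. Both groups grew in serum-containing medium. Nothing in the labels says that the replicates were separate cultures, so the spread between arrays may be technical. Because RNA came from whole cultures, a change in transcript per cell and a change in the share of cells that carry it cannot be told apart.

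Complement is a cascade of plasma proteins that is activated on surfaces by the classical, lectin and alternative pathways. All of them converge on C3 and C5 convertases and end in a pore, the membrane attack complex. CD55 (decay-accelerating factor) makes the convertases fall apart, CD46 (membrane cofactor protein) is the cofactor with which factor I cleaves C3b and C4b, and CD59 (protectin) keeps C9 from completing the pore. CD55 and CD59 are held in the membrane by a glycosylphosphatidylinositol (GPI) anchor, whereas CD46 spans it. Tumour cells of many kinds carry these proteins, which limits killing by antibody and complement.

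CD55 and CD46 lie in the same cluster of complement regulators on chromosome 1, and CD59 lies on chromosome 11. The 250 bases before the outermost RefSeq start of each gene are shown, 5′ to 3′ on the gene's strand, because the 3 genes differed in size of response. Sequences and coordinates are from RefSeq on GRCh38.p14, at chr1:207321428-207321677 (plus strand) for CD55, chr1:207751788-207752037 (plus strand) for CD46 and chr11:33736480-33736729 (minus strand) for CD59. Capitals mark TGTTT, the core shared by binding sites of FOXO factors, and TGACG, the half-site of CREB-type factors, each searched on both strands.
CD55: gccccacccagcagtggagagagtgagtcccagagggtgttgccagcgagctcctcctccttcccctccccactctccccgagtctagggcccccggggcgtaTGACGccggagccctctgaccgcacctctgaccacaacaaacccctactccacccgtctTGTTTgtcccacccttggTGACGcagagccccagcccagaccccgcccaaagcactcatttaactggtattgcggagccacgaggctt
CD46: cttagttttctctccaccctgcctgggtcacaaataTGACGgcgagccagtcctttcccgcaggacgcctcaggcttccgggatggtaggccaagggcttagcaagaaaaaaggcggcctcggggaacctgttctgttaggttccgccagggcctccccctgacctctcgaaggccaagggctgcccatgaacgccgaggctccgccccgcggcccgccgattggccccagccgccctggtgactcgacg
CD59: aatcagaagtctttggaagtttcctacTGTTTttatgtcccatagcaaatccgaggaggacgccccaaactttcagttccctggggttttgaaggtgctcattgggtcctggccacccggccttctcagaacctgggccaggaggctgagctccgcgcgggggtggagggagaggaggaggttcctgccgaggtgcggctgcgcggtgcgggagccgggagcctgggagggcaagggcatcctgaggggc

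In these windows TGTTT occurred once in CD55, beginning 88 bases before the start, once in CD59, 223 bases before it, and not in CD46. Of all 35116 promoter windows of the same length, 40.4% hold this core on either strand. The longer FOXO motif TGTTTAC was in none of the 3 windows, as in all but 2.98% of windows. TGACG occurred 2 times in CD55, beginning 147 and 70 bases before the start, and 1 time in CD46, 214 bases before it. It is held by 21.2% of all windows, and 4.76% hold it at least 2 times. The GC box GGGCGG was found 1 time in CD55 and 2 times in CD46, against 42.6% of windows with at least 1 and 24.3% with at least 2. The E-box CACGTG was in none of the 3, against 6.34% of windows. TGTTT lies within TGTTTAC, so a match to the longer motif is also one to the core. The promoter set held 1 start for CD55, 2 for CD46 and 4 for CD59, and only the outermost of each gene was searched. Which start T47D cells use was not tested. These matches describe letters, not binding.

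Values below are the deposited RMA signals on a log2 scale, where a step of 1 is a factor of 2 in signal. The SD is over the 3 arrays of a group, and the SE of a difference is from limma's fit across all probe sets. Signals of different probe sets are not read as relative amounts of transcript. A list of 8 luminal marker genes, chosen with earlier results of these data known, had levels of 12.12 to 14.30 in GDC-0941 arrays. In controls the levels of these 8 genes were 11.62 to 14.34. Of these the transcription factor gene FOXA1 and the progesterone receptor gene PGR rose (log2 differences 0.53 and 0.42, adjusted p = 3.03e-05 and 0.000117 in limma). The keratin genes KRT8 and KRT18 fell by 0.23 and 0.21 on the log2 scale (adjusted p = 0.00733 and 0.0128), but did not pass with arrays centred on hybridisation controls (adjusted p = 0.613 and 0.762). KRT19, EPCAM, ESR1 and GATA3 did not pass. Of 7 basal, stromal and blood cell markers, PTPRC averaged 6.17 in GDC-0941 arrays and 6.23 in controls, KRT14 6.09 and 6.25, and COL1A1 10.97 and 10.40. COL1A1 rose (log2 difference 0.56, adjusted p = 6.53e-05 in limma), and the other 6 did not pass. RMA values carry no detection call. The median of an array was 7.34 to 7.38, and 2 arrays of a group correlated across probe sets at r = 0.9970 or more. In limma 18.8% of the 54613 probe sets had an adjusted p under 0.05, with 8.88% higher and 9.89% lower in treated arrays.

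CD55, which disarms the convertases that generate C3b and C5b, had the largest differences of the 3 genes, and all 3 of its probe sets were about 2-fold or more higher after GDC-0941. Probe set 201925_s_at read 12.15, 12.03 and 12.14 in GDC-0941 arrays, against 10.66, 10.62 and 10.70 in controls. The means were 12.11 ± 0.06 and 10.66 ± 0.04 (SD, n = 3 each). They differed by 1.45 ± 0.06 (SE) on the log2 scale, or 2.73-fold. The lowest treated array stood 1.33 above the highest control on the log2 scale. Ordered from the highest difference down, it stood at rank 23 among all probe sets.

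Probe set 1555950_a_at of CD55 read 11.24, 11.04 and 11.20 in GDC-0941 arrays, against 10.10, 10.16 and 10.12 in controls, a log2 difference of 1.03 ± 0.07 (SE), or 2.05-fold. Probe set 201926_s_at of CD55 read 11.36, 11.28 and 11.39 in GDC-0941 arrays, against 10.34, 10.25 and 10.46 in controls, a log2 difference of 0.99 ± 0.07 (SE), or 1.99-fold. In both, every treated array was above every control, with gaps of 0.88 and 0.81 on the log2 scale. The 3 probe sets of CD55 thus gave the same direction but not the same size: 201925_s_at differed by 0.41 to 0.46 more than the others on the log2 scale. Differences of 1 or more on the log2 scale were found for 0.185% of all probe sets. The sources used here do not give the transcript variants that each probe set reads.

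CD46, the cofactor for cleavage of C3b and C4b, showed small differences that lay in the same direction in all 3 probe sets. Probe set 208783_s_at read 12.83, 12.81 and 12.85 in GDC-0941 arrays, against 12.63, 12.61 and 12.61 in controls, a log2 difference of 0.21 ± 0.06 (SE), or 1.16-fold. The replicates of this probe set were tight, with an SD of 0.02 in GDC-0941 arrays and 0.01 in controls, and the groups did not overlap. Probe set 207549_x_at of CD46 read 11.75, 11.63 and 11.61 in GDC-0941 arrays, against 11.46, 11.49 and 11.54 in controls, a log2 difference of 0.17 ± 0.06 (SE). Probe set 211574_s_at of CD46 read 11.35, 11.16 and 11.27 in GDC-0941 arrays, against 11.08, 11.07 and 11.14 in controls, a log2 difference of 0.17 ± 0.07 (SE). Here too the groups were apart, but the gap was only 0.07 for 207549_x_at and 0.03 for 211574_s_at, less than the SD between treated arrays.

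CD59, which blocks the last step of pore formation, had differences of 0.06 to 0.11 in 4 of its 5 probe sets, and in 3 of these the groups overlapped. Probe set 200985_s_at of CD59 read 12.12, 11.93 and 12.02 in GDC-0941 arrays, against 11.88, 11.86 and 11.99 in controls, a log2 difference of 0.11 ± 0.07 (SE). Probe set 200984_s_at of CD59 read 11.74, 11.64 and 11.65 in GDC-0941 arrays, against 11.58, 11.61 and 11.61 in controls, the 1 probe set of CD59 whose groups did not overlap, with a log2 difference of 0.08 ± 0.06 (SE). Probe sets 200983_x_at and 212463_at of CD59 both differed by 0.06 on the log2 scale, with SE of 0.07 and 0.06.

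The remaining probe set of CD59, 228748_at, was dim: it read 7.25, 7.02 and 6.96 in GDC-0941 arrays, against 6.73, 6.72 and 6.96 in controls. Its log2 difference of 0.27 ± 0.09 (SE) was larger than that of the other CD59 probe sets, and so was its spread (SD 0.15 in GDC-0941 arrays and 0.14 in controls). Its highest control matched its lowest treated array to within 0.01 on the log2 scale. Its mean of 6.94 lies below the array medians, so how much of it is transcript is not known.

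**Figure D1:**
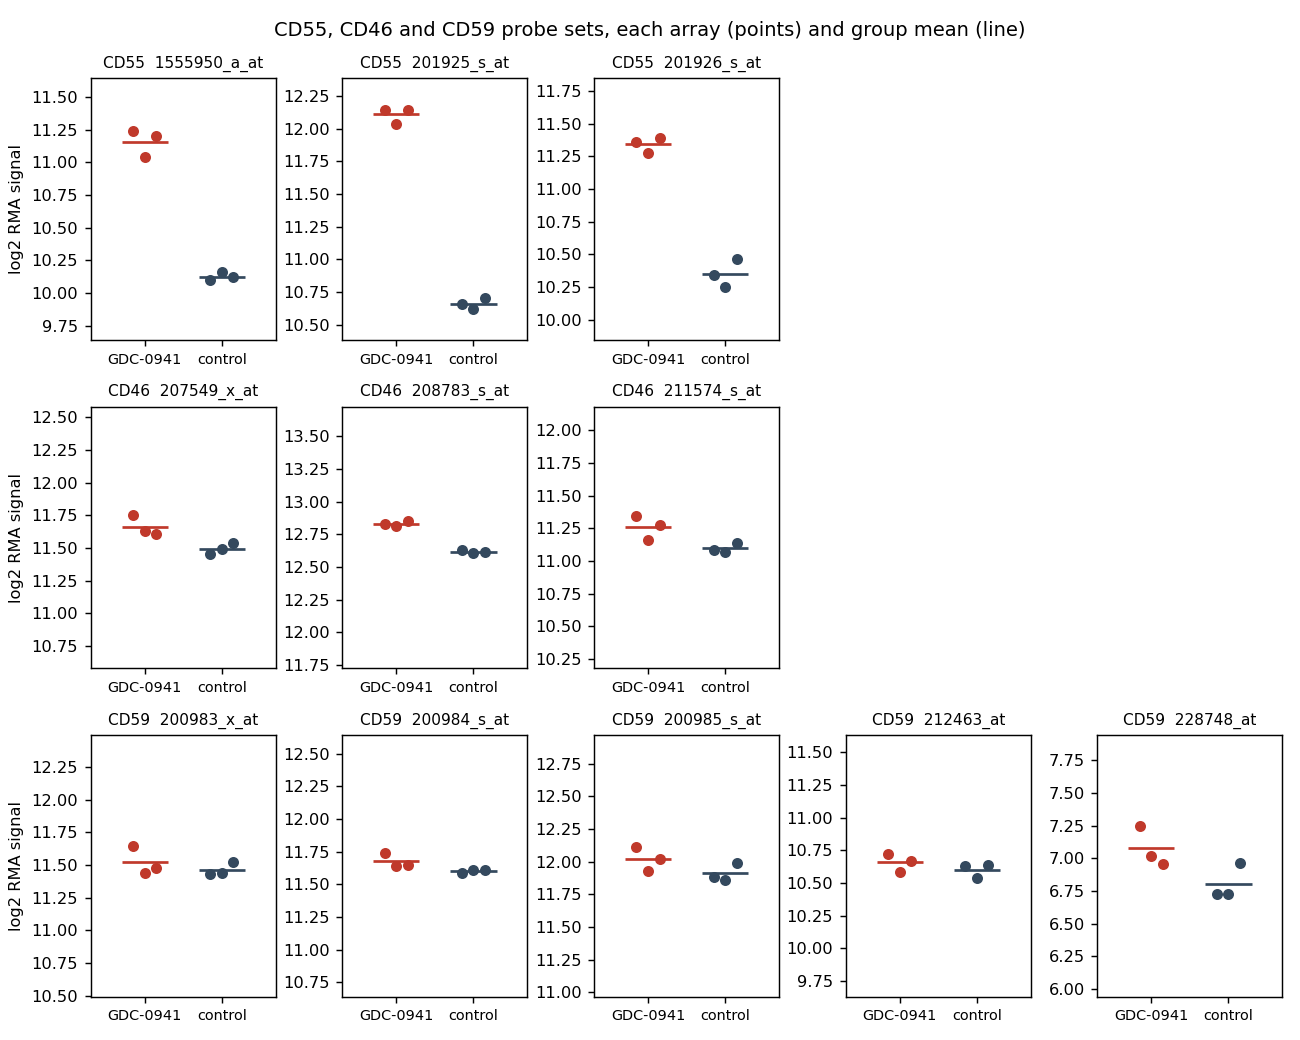
Log2 RMA signal (y axis, a span of 2 in every panel) of each CD55, CD46 and CD59 probe set, with points for the 3 GDC-0941 arrays (left) and the 3 control arrays (right) and a line at each group mean. The groups are far apart in all 3 CD55 panels, close but apart in the 3 CD46 panels, and overlapping in 4 of the 5 CD59 panels.

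All 11 probe sets thus had a positive difference, from 0.06 to 1.45 on the log2 scale with a median of 0.17, beside a median of -0.01 over all probe sets. In 7 of the 11 the 3 treated arrays were all above the 3 controls, as in 15.6% of all probe sets, and in the other 4 the groups overlapped. Over all probe sets the groups did not overlap, in either direction, in 34.3%. In limma's fit 4 of the 11 passed an adjusted p of 0.05, all higher, beside 8.88% of all probe sets. Most of the 11 are bright, and the share called depends on level: with only probe sets above the median level fitted, 39.2% of them were called. Nothing is read from the counts of members apart or called, since the same contrast led to the choice of genes.

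The reference used for the arrays bears on the small differences. When the 18 hybridisation controls, transcripts added before hybridisation, set the zero of each array, the median of all probe sets was 0.16 on the log2 scale rather than -0.01. The differences with that centring were 1.16 to 1.62 for CD55, 0.34 to 0.38 for CD46 and 0.23 to 0.44 for CD59. Relative to the median of all probe sets they changed little, as this centring adds the same amount to every probe set of an array. The hybridisation controls averaged 10.72, 10.65 and 10.86 in the GDC-0941 arrays, against 10.94, 10.90 and 10.90 in the control arrays. This reference thus itself varied between treated arrays. Whether a call lost under it came from that spread or from the shift was not tested.

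**Figure D2:**
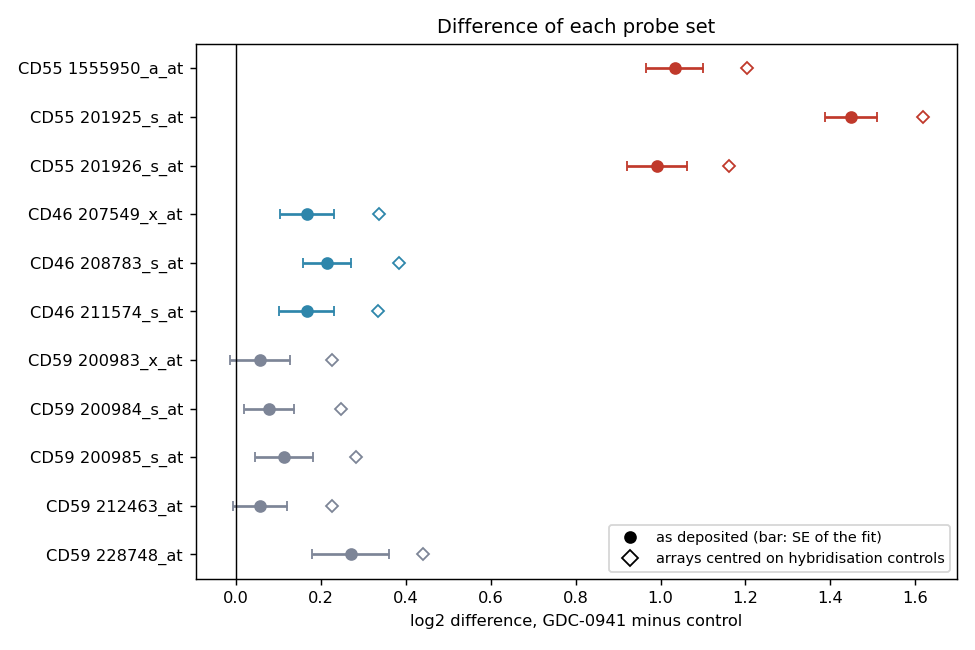
Log2 difference, GDC-0941 minus control (x axis), of the 11 probe sets, with filled points for the deposited values (bars are the SE of limma's fit) and open diamonds for arrays centred on hybridisation controls. CD55 lies between 0.99 and 1.45 as deposited, CD46 between 0.17 and 0.21, and CD59 between 0.06 and 0.27.

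A comparison within each array does not depend on that reference. The mean log2 signal of the CD55 probe sets minus that of the CD46 probe sets, set to 0 at the control mean, was 0.96, 0.94 and 1.03 in GDC-0941 arrays, against 0.00, -0.02 and 0.02 in controls. The ratio of CD55 to CD46 was thus 1.97-fold that of controls. CD55 against CD59 gave 0.98, 1.03 and 1.12 in GDC-0941 arrays and 0.01, 0.01 and -0.02 in controls, a 2.06-fold ratio. CD46 against CD59 gave 0.02, 0.09 and 0.09 in GDC-0941 arrays and 0.01, 0.03 and -0.04 in controls, and these overlapped. The signal of CD55 thus differed from that of both others by a similar factor in every treated array.

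The order of the treated arrays in these probe sets resembled that in bright probe sets at large. GDC-0941 replicate 1 was the highest treated array in 9 of the 11 probe sets and replicate 2 the lowest in 9. Among the 6509 probe sets with a mean above 10, replicate 1 was highest of the treated arrays in 74.8% and replicate 2 lowest in 80.9%, against 39.2% and 38.5% over all probe sets. The SD of all values on an array was 2.04 for replicate 1, 1.98 for replicate 2 and 2.02 for replicate 3 of the GDC-0941 group, and 2.01 to 2.04 in controls. With the arrays brought to one distribution by quantile normalization, the differences were 1.02 to 1.48 for CD55, 0.18 to 0.22 for CD46 and 0.07 to 0.27 for CD59.

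Genes around the regulators were examined next at 1 probe set per gene, the one with the highest mean over the 6 arrays. At this level 27.8% of the 19775 genes were called in limma (adjusted p under 0.05), 12.1% as higher and 15.6% as lower. Few genes of the complement cascade passed. When only genes above the median level were fitted, 54.6% of them were called, so the share called depends on level. The small count is therefore not read as a trait of complement. Of 25 measured components, nearly all secreted proteins, 1 rose and 2 fell, with a median log2 difference of -0.01 beside -0.02 for all genes. C5, the precursor of the pore's first subunit, rose by 0.24 ± 0.08 (SE, adjusted p = 0.0358 in limma), CFD, the protease that activates factor B, fell by 0.23 on the log2 scale (adjusted p = 0.0173) and C1QB, a chain of C1q, fell by 0.17 on the log2 scale (adjusted p = 0.0412). C3 itself, named after its value was seen, averaged 8.58 in GDC-0941 arrays and 8.52 in controls (adjusted p = 0.534). The components were dim, with group means of at most 8.92, and each of these 3 calls was lost in some fits that left out an array: C5 and C1QB passed in 1 of the 6 and CFD in 3. With arrays centred on hybridisation controls, CFD differed by -0.06 and C1QB by 0.00 (adjusted p = 0.631 and 0.99).

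Of 11 complement receptors 2 rose and 2 fell, beside 12.1% higher and 15.6% lower over all genes. C1QBP, a mostly mitochondrial protein that binds C1q, had the largest change. It read 11.80, 11.58 and 11.78 in GDC-0941 arrays, against 12.35, 12.25 and 12.33 in controls. It fell by 0.59 on the log2 scale (SE 0.07, adjusted p = 6.93e-05 in limma), and both of its probe sets passed as lower. C5AR1 and C5AR2, the receptors of the C5a fragment, rose by 0.27 and 0.23 (adjusted p = 0.00823 and 0.0171), at dim signals that averaged 4.68 and 7.26 in GDC-0941 arrays and 4.41 and 7.03 in controls. The call of C5AR2 was lost in 4 of 6 fits that left out an array.

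Among 12 other regulators of complement 2 rose, and in limma none fell (3 higher and 1 lower at an unadjusted p under 0.05). Over all genes 12.1% were higher and 15.6% lower. CSMD1, a large membrane protein with complement control domains, rose by 0.25 (adjusted p = 0.0094), but in 1 of its 5 probe sets, and the adjusted p was 0.0501 without GDC-0941 replicate 3. C4BPB, a chain of the C4b-binding protein, rose by 0.22 (adjusted p = 0.036), a call held in 2 of 6 fits that left out an array. Clusterin (CLU), a secreted inhibitor of the pore named after its value was seen, averaged 13.13 in GDC-0941 arrays and 13.09 in controls (adjusted p = 0.731).

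Proteins that bind or cut the regulators were a short list of 4. ADAM10, a protease that sheds CD46, rose by 0.22 ± 0.05 (SE, adjusted p = 0.00905), in 1 of its 3 probe sets, and missed the threshold without control replicate 2. ITGB1, the integrin beta chain found in complexes with CD46, rose by 0.20 (adjusted p = 0.0219), in 1 of its 7 probe sets. This call was lost without GDC-0941 replicate 1 or 3 or control replicate 1 (adjusted p = 0.0569, 0.0502 and 0.0911), and with the replicate number as a block (0.0512). The CD55 ligand ADGRE5 (CD97) and the CD46 ligand JAG1 did not pass, with log2 differences of -0.08 and -0.18 (adjusted p = 0.486 and 0.0641).

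CD55 and CD59 need a GPI anchor to reach the surface, and the enzymes that build and attach it were split. Of 29 measured genes 4 rose and 9 fell, a median of -0.06 on the log2 scale. Over all genes 12.1% were higher and 15.6% lower. With only genes above the median level fitted, 54.6% of them were called, so nothing is read from the counts in this list. PIGP, a subunit of the enzyme that starts the anchor, rose by 0.49 ± 0.06 (SE, adjusted p = 7.61e-05): it read 11.47, 11.38 and 11.46 in GDC-0941 arrays, against 10.95, 10.90 and 11.00 in controls. PIGW, which acylates the anchor's inositol, fell by 0.51 on the log2 scale (adjusted p = 0.000226) and DPM3, a subunit of the enzyme that makes the mannose donor, fell by 0.48 on the log2 scale (adjusted p = 0.000463). PIGA, the catalytic partner of PIGP, named after its value was seen, fell by 0.38 on the log2 scale (adjusted p = 0.00413). With arrays centred on hybridisation controls, 8 of the 29 rose and 2 fell, PIGW and DPM3, while PIGA did not pass (adjusted p = 0.0803). That reference moved calls over all genes the same way: 28.8% of them were higher and 4.53% lower under it.

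Of 52 other GPI-anchored proteins 5 rose and 8 fell, shares near the 12.1% and 15.6% of all genes, and their median was -0.02. EFNA1, a ligand of EphA receptors, rose by 0.63 ± 0.06 (SE, adjusted p = 2.69e-05). HYAL2, a hyaluronidase, fell by 0.58 on the log2 scale (adjusted p = 5.95e-05) and PRNP, the prion protein, fell by 0.45 on the log2 scale (adjusted p = 0.00021). The largest rise in this list, 0.63, was smaller than that of any CD55 probe set. CD55 was chosen for its difference, so nothing is read from this. With hybridisation controls as the reference, 14 of the 52 rose and 3 fell, again near the shares of all genes (28.8% and 4.53%). Of 10 other surface proteins that face immune cells, 2 rose and 2 fell, counted at the brightest probe set. PVR, named after its values were seen, did not pass there (log2 difference -0.11, adjusted p = 0.328 in limma). However, 5 of its 7 probe sets were called lower, with differences down to -0.71. CD47 and B2M, also not called, each had 1 probe set called higher. CD58, the ligand of CD2 on lymphocytes, fell by 0.42 on the log2 scale (adjusted p = 0.000675) and NECTIN2 fell by 0.26 on the log2 scale (adjusted p = 0.00715), a call lost with hybridisation controls as the reference (adjusted p = 0.458). ICAM1, an adhesion ligand of leukocyte integrins, rose by 0.20 (adjusted p = 0.0216). This call was lost without GDC-0941 replicate 2 or control replicate 1 or 3 (adjusted p = 0.0623, 0.0989 and 0.0504). Of the 3 probe sets of ICAM1, 2 were called higher, and their differences ranged over 0.14 to 0.42. In the lists of components, receptors, other regulators, partners and surface proteins facing immune cells, too, calls under that reference were mostly higher, as were 86.4% of those over all genes.

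**Figure D3:**
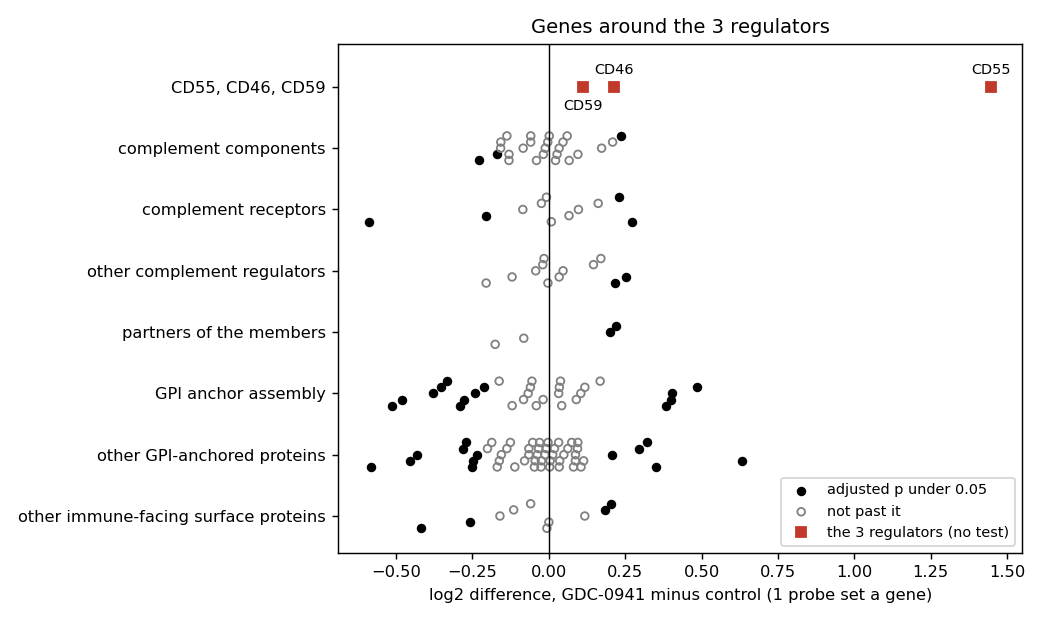
Log2 difference, GDC-0941 minus control (x axis), of each gene in the lists around the 3 regulators, 1 point per gene at its brightest probe set, filled where the adjusted p in limma was under 0.05. CD55, chosen for its difference, is at 1.45, and no gene of the 7 lists exceeded 0.63. Nothing is read from that contrast.

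Neighbours of the genes on the chromosome were compared to see whether the response of CD55 extended along the cluster. Over all genes 12.1% were called higher and 15.6% lower, and nothing is read from the counts of neighbours beside these shares. Among the 10 measured genes on either side of CD55, CD46 is the fourth after it, and of the other 19 genes 2 rose and 17 did not pass. None of these 19 averaged above 9.01 in either group. At such dim signals a missing change cannot show whether the response extended along the cluster. The direct neighbours C4BPA and CR2 differed by -0.12 and 0.10 on the log2 scale (adjusted p = 0.212 and 0.24). C4BPB, described above, was 1 of the 2 that rose, and the probe set annotated to MIR205, a microRNA gene, was the other (0.32, adjusted p = 0.00476). Around CD59, 5 of 20 neighbours rose and 3 fell. The largest changes there were in ELF5 and EHF, epithelial ETS transcription factors that lie side by side, with rises of 0.60 and 0.55 (adjusted p = 1.51e-05 and 2.98e-05). FBXO3, the next measured gene after CD59, rose by 0.33 (adjusted p = 0.00274) and PRRG4 rose by 0.34 (adjusted p = 0.00063), each in fewer than all of its probe sets. PDHX rose by 0.21 (adjusted p = 0.0252), a call that held in 2 of 6 fits without 1 array (adjusted p up to 0.111). The 3 that fell were QSER1 (-0.30), NAT10 (-0.27) and CSTF3 (-0.16, adjusted p = 0.0488), and QSER1, NAT10 and CSTF3 did not pass with arrays centred on hybridisation controls (adjusted p = 0.29, 0.384 and 0.971 in limma). The call of CSTF3 held in 1 of 6 fits without 1 array (adjusted p up to 0.196).

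**Figure D4:**
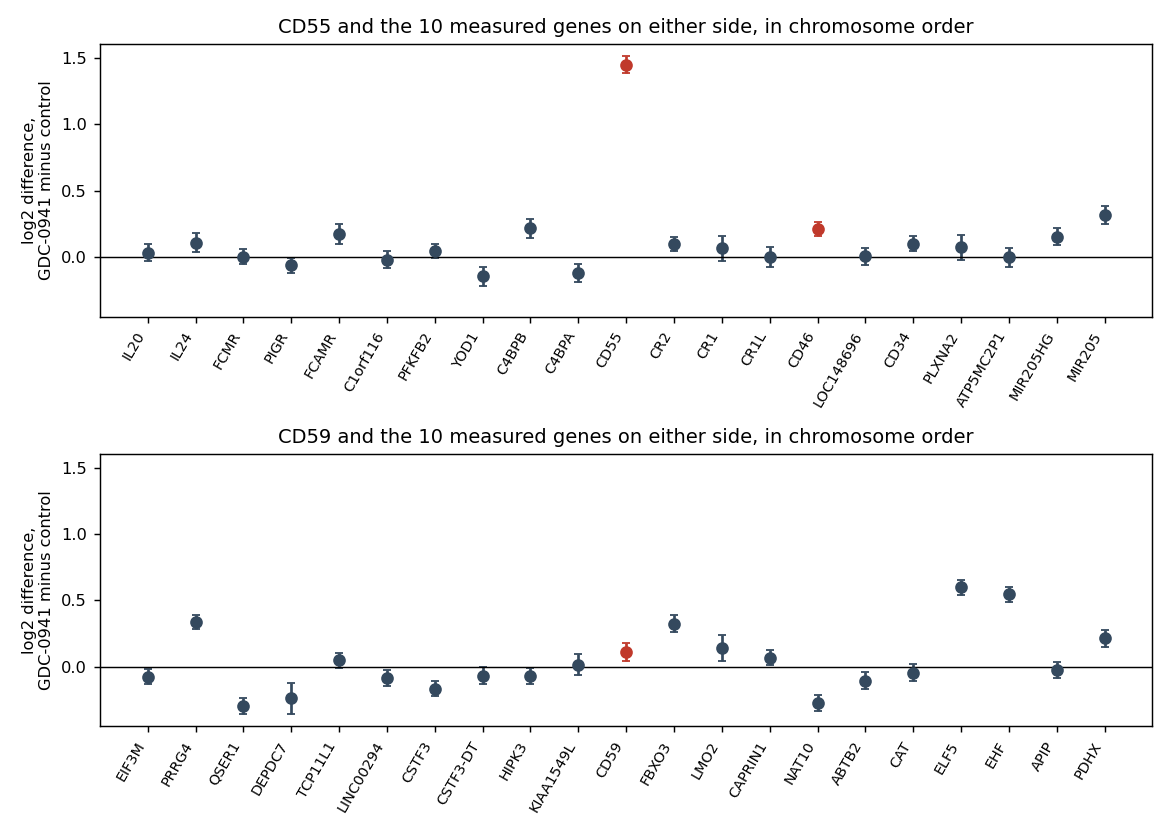
Log2 difference, GDC-0941 minus control (y axis, bars are the SE of limma's fit), of CD55 (top) and CD59 (bottom) with the 10 measured genes on either side in chromosome order, CD46, CD55 and CD59 in red. CD55 is at 1.45, and the other genes of its row lie between -0.15 and 0.32, all but CD46 at dim signals (group means of at most 9.01). CD59 at 0.11 lies among neighbours between -0.30 and 0.60.

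The genes whose profiles over the 6 arrays were nearest to that of CD55 (201925_s_at) were found by the root mean square difference of log2 signals, each gene set to 0 at its own control mean. They were SLC25A21-AS1, an antisense transcript (0.07), SKAP2, an adaptor of SRC family kinases (0.08), YPEL2 (0.09), H2BC4, a histone H2B gene (0.13), and DEPTOR, an inhibitor bound to mTOR (0.16). SKAP2 read 11.94, 11.87 and 11.79 in GDC-0941 arrays, against 10.30, 10.34 and 10.41 in controls. DEPTOR read 10.92, 10.81 and 10.83 in GDC-0941 arrays, against 9.58, 9.63 and 9.67 in controls. Only 2 conditions lie behind this likeness, so it mainly ranks genes by a similar difference between the groups. SKAP2, YPEL2 and DEPTOR had further probe sets with smaller differences, down to -0.11, 0.21 and 0.07.

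**Figure D5:**
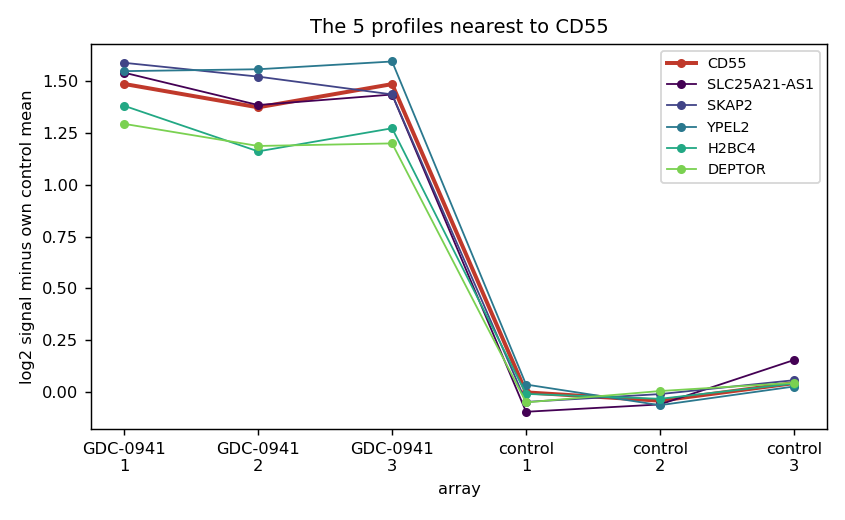
Log2 signal minus the gene's own control mean (y axis) on each of the 6 arrays (x axis) for CD55 and the 5 genes with the nearest profiles. All 6 lines lie between 1.16 and 1.59 on the GDC-0941 arrays and no farther than 0.15 from 0 on the controls.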

How the data were processed

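RNA from T47D cells was hybridised to 6 oligonucleotide arrays, 3 per group, a number that limits the precision. The authors made the deposited log2 signals with RMA, per the submitters' processing notes. The sources used here do not give its version or the chip definition, and the values themselves gave the log2 scale. RMA sets each array against the others, so a shift of most transcripts together would not show.

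Of 54675 probe sets 62 are manufacturer's controls and 41091 name 1 gene, and 41037 of these took their symbol from RefSeq (GRCh38.p14), which also gave gene order. limma 3.58.1 (R 4.3.3, lmFit and eBayes, two-sided) compared GDC-0941 with control, with Benjamini-Hochberg adjustment over 54613 probe sets or, for genes, over 19775. Members and lists were chosen with earlier results of these data known. Named were all member probe sets, the 3 called genes of each list with the largest change, called neighbours and the 5 nearest profiles. Alternatives comprised a replicate block, each array left out, other normalizations and variance models, a level filter, other probe sets per gene and an adjusted p under 0.01. Figures used matplotlib 3.10.9.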

Additional observations from a re-analysis of the deposited data

How the results depend on the processing

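The CD55 differences ranged over 0.94 to 1.62 on the log2 scale, which is no support for a result, since this contrast chose the genes. Leaving out 1 array gave 0.99 to 1.09 for 1555950_a_at, 1.43 to 1.49 for 201925_s_at and 0.94 to 1.05 for 201926_s_at. Apart from centring on hybridisation controls, CD46 ranged over 0.12 to 0.23 and CD59 over -0.01 to 0.35, the negative value being that of 200983_x_at. Centred on hybridisation controls, the differences were 0.3372 (207549_x_at), 0.3834 (208783_s_at) and 0.3352 (211574_s_at) for CD46. For CD55 they were 1.2034 (1555950_a_at), 1.6181 (201925_s_at) and 1.1617 (201926_s_at). For CD59 they were 0.2253 (200983_x_at), 0.2459 (200984_s_at), 0.2822 (200985_s_at), 0.2255 (212463_at) and 0.4394 (228748_at). The shift follows from the construction of that centring.

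Of the 11 probe sets 4 passed, 3 to 4 without 1 array, 8 with hybridisation controls and 7 with a variance trend and robust estimation. With quantile normalization and with array weights 6 passed. The 3 CD55 probe sets passed each time. The call of CD46 208783_s_at was lost with the replicate block, and without GDC-0941 replicate 3 or control replicate 1, 2 or 3. CD59 228748_at passed without GDC-0941 replicate 3 or control replicate 3. Of genes in the lists, counted in both directions, 3 components passed with all arrays (0 to 3 without 1 array), and 5 with hybridisation controls, 11 with array weights, 1 above the median level and 0 at an adjusted p of 0.01. They were 0 in limma without GDC-0941 replicate 3 or control replicate 1 (4 and 5 at an unadjusted p under 0.05), and 1 without control replicate 2 or 3. Receptors numbered 4 (2 to 4 without 1 array, 2 without GDC-0941 replicate 1 or control replicate 2), 1 above the median level and 2 at 0.01. Other regulators numbered 2 (1 to 2 without 1 array, 2 only without control replicate 2), 1 with the replicate block, 4 with hybridisation controls, 5 with array weights, 0 above the median level and 1 at 0.01. Partners numbered 2 (1 to 2 without 1 array, 2 only without GDC-0941 replicate 2 or control replicate 3), and 1 with the replicate block, at 0.01, with all probe sets averaged and with unmarked probe sets first. GPI-anchored proteins numbered 13 and 22 with array weights. Surface proteins facing immune cells numbered 4 (2 to 5, 2 without control replicate 1) and 2 at 0.01. Array weights called 47.6% of all genes against 27.8%, and their estimation stopped before it converged. The cause of the other changes was not tested.

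Of the 41 listed genes called, 36 were still called in the same direction with the replicate block. Fits that left out 1 array kept 32 to 36. With hybridisation controls 25 were kept and 1 turned sign, and at an adjusted p under 0.01 27 were kept. With all probe sets of a gene averaged 33 were kept and 2 turned sign. Quantile normalization, centring on the array median and array weights each kept 40. Same-numbered arrays did not deviate together (correlations of -0.34, 0.14 and -0.03 across probe sets), so the numbers were not taken as pairs. With unmarked probe sets first ITGB1, PIGX, FOLR1 and RGMA turned sign, and FOLR1 passed as higher.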
